A study of Mus musculus with 6 samples.

Results

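Fibroblast growth factor (FGF) genes were followed through 10 members: 6 genes of the FGF family (Fgf2, Fgf7, Fgf9, Fgf10, Fgf12 and Fgf18), the FGF carrier gene Fgfbp1 and the receptor genes Fgfr1, Fgfr2 and Fgfr3. Each was read from the probe sets annotated to it alone, 19 in all, as the mean log2 ratio per array, among 18193 genes read in the same way. The arrays, Affymetrix Mouse Genome 430 2.0, fell into 3 groups with 2 arrays each: atrioventricular cushion of wild-type FVB/N embryos at embryonic day 12.5 (E12.5), atrioventricular valve of the same strain at E17.5, and cultured MC3T3-E1 (subclone4), an osteoblast progenitor cell line and a single clone. No group carried a transgene and the treatment label of every array is none. Each array carried pooled RNA, with the number of embryos or cultures in a pool not given in the sources used here, and the 2 arrays of each group are described in the labels as biological duplicates. The question in the series title is which profiles remodelling valves share with osteoblast progenitors.

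FGFs are secreted proteins that bind receptor tyrosine kinases on the cell surface together with heparan sulphate, the sugar chain that holds them in the matrix. Receptor activation runs through Ras and the MAP kinases to ETS factors and to feedback inhibitors such as the Sprouty proteins and the phosphatase encoded by Dusp6. In the chick, FGF given to cushion cells induces tendon-type genes, and in bone FGF receptors govern osteoblast growth and maturation. Fgf12 stands apart from the other FGF genes here, since its product stays inside the cell, where it binds voltage-gated sodium channels of heart muscle and neurons.

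Deposited values set a probe set against the middle of its readings on the 4 tissue arrays (E12.5 and E17.5, together called valve arrays here), so that 0 on the log2 scale stands for the middle of those arrays. They do not show how abundant one transcript is against another, nor whether a transcript was present at all. The members were chosen with results of these comparisons known, and their values are therefore given as a description, with the standard error (SE) of the limma fit over all genes and no p. Called genes have a Benjamini-Hochberg adjusted p under 0.05 in that fit together with a difference of at least 2-fold. With 2 arrays a group the smallest p of an exact two-sided permutation test is 0.333. The SE and adjusted p-values of limma rest on the spread between replicate pools, taken over all 3 groups and moderated over all genes. The MC3T3 replicates, which lay closest together (median absolute log2 difference 0.079), thus enter the SE of the stage comparison too. Both comparisons with MC3T3 share the MC3T3 arrays, and each tissue stage enters 2 of the 3 comparisons.

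The start sites of 3 members are shown because these genes differed most between the groups. Fgfbp1 and Fgf12 were both far higher at E17.5 than in the other groups, and Fgf7 was far higher in MC3T3. Of the 10 members, 9 (all but Fgfr1) matched the RefSeq promoter table (GRCm38.p6), whose windows span 250 bases before to 50 after a start, with 13 windows in all. Fgfbp1 is printed from chr5:43981750-43982049 on the minus strand, Fgf12 from chr16:28753194-28753493 on the minus strand, the most upstream of its 4 starts, and Fgf7 from chr2:126034408-126034707 on the plus strand. Capitals mark matches to any of 4 motifs, each searched on both strands. The TATA box was searched as TATAAA and the GC box as GGGCGG. The AP-1 site was searched as TGANTCA. The RUNX site was searched as TGTGGT.
Fgfbp1: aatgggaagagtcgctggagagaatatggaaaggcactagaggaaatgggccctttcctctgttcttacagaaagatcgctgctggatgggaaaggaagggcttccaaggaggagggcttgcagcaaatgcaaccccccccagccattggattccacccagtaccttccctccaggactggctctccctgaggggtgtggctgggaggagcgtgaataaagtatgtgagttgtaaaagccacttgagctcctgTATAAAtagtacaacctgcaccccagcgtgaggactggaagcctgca
Fgf12: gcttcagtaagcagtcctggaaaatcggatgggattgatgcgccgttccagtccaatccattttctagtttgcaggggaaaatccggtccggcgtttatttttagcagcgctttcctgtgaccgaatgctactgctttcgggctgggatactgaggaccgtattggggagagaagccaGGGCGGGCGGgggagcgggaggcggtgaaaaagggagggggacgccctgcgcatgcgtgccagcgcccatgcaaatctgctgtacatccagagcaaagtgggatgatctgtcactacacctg
Fgf7: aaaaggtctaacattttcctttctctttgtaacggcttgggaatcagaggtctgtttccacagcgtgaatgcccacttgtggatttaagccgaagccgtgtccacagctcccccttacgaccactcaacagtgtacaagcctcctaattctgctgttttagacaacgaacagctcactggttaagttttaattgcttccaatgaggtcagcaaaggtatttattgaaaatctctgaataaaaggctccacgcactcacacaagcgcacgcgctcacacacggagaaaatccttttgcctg
The window of Fgfbp1 held 1 TATA box match, a motif found in 13.6% of all 32851 windows of the table. That of Fgf12 held 2 overlapping GC box matches, a motif found in 35.7% of windows. None of the 4 motifs was found in the Fgf7 window. AP-1 and RUNX matches stood in 7.81% and 16.8% of all windows, and in 1 and 0 of the members' 13 windows, while 1 of the 13 held a TATA box and 8 a GC box. The AP-1 match lay at another start of Fgf12, at chr16:28446026-28446325.

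Among the 5 secreted ligands, Fgf7 differed most, and between the cell line and both tissues. Fgf7 (chr2:126034658-126091185, GRCm38.p6), which encodes a mesenchymal factor acting on the epithelial form of FGFR2 and known as keratinocyte growth factor, had log2 ratios of 6.54 and 6.62 in MC3T3. The E12.5 cushion arrays read -0.20 and -0.28 and the E17.5 valve arrays 0.31 and 0.15. MC3T3 thus stood 81.6-fold above the E17.5 valve (log2 difference 6.35 ± 0.09) and 113-fold above the E12.5 cushion (6.82 ± 0.09), with both cell line arrays far above all tissue arrays. Between the stages the arrays did not overlap either, with a gap of 0.35 against a widest replicate range of 0.15, but the difference was small (0.47 ± 0.09). Both Fgf7 probe sets gave this order. One (1438405_at) put MC3T3 6.82 above the E17.5 valve and the other (1422243_at) 5.88. The genes nearest to Fgf7 over the 6 arrays, by Euclidean distance between log2 ratios, were Omd (0.35), which encodes a keratan sulphate proteoglycan of bone, Efhd1 (0.61), a calcium-binding protein of mitochondria, and Pappa2 (1.09), a protease of IGF-binding proteins. Omd read 6.55 and 6.51 in MC3T3 and between -0.39 and 0.19 on the tissue arrays. Ratios are set against the middle of the tissue arrays. Any gene that differs little between the stages therefore reads close to that middle on all of them. Nearness to Fgf7 thus rests mostly on the MC3T3 readings and is given as a description.

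Fgf18 (chr11:33116970-33147400), a ligand of bone and cartilage growth, was lowest in the E12.5 cushion. Its log2 ratios were -0.54 and -1.02 at E12.5, 0.51 and 0.39 at E17.5, and 0.87 and 0.74 in MC3T3, so that the 3 groups were ordered without overlap. The E17.5 valve was 2.34-fold above the E12.5 cushion (1.23 ± 0.15) and MC3T3 3-fold above it (1.59 ± 0.15). E17.5 valve and MC3T3 were close, at 0.36 ± 0.15. Without E12.5 cushion replicate 2 the stage difference came to 0.98, just under 2-fold.

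Fgf9 (chr14:58070671-58112854) ran the other way. This ligand, made by epicardium and epithelia and acting on mesenchyme, had ratios of 0.16 and 0.10 at E12.5, -0.11 and -0.22 at E17.5, and -1.40 and -1.27 in MC3T3. The cell line stood 2.26-fold below the E17.5 valve (-1.18 ± 0.09) and 2.76-fold below the E12.5 cushion (-1.47 ± 0.09), and the stages differed by -0.29 ± 0.09. Its probe sets differed in size, with -1.70 (1438718_at) and -0.66 (1420795_at) for MC3T3 minus E17.5 valve. All 9 measured epicardial and mesothelial markers were also called lower in MC3T3 than in the E17.5 valve. So were 12 of 12 cardiomyocyte, 11 of 12 endothelial and 9 of 10 macrophage markers, against 9.78% of all genes. Of 16 epithelial markers 7 were lower and 1 higher. The epicardial and mesothelial list averaged -3.84 and -3.86 on the MC3T3 arrays, 0.15 and 0.38 at E17.5, and -0.34 and -0.68 at E12.5. Between the stages 3 of its 9 genes were called higher and 6 were not called, with a median difference of 0.11. The part of any of these cells in the Fgf9 difference was not tested. In tissue arrays fewer cells of a type cannot be told apart from less RNA per cell.

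The remaining secreted ligands were not called in any comparison. Fgf10 (chr13:118714699-118792573), a paralogue of Fgf7 required for lung and limb outgrowth, read 0.16 and 0.53 at E12.5, -0.21 and -0.18 at E17.5, and -0.38 and -0.50 in MC3T3. The largest of its differences was that between MC3T3 and the E12.5 cushion, -0.78 ± 0.12. The stages did not overlap, but their gap of 0.33 was narrower than the 0.37 between the E12.5 replicates. Fgf2 (chr3:37348477-37410106), a ligand stored on matrix heparan sulphate, read 0.22 and -0.02 at E12.5, 0.02 and -0.11 at E17.5, and 0.03 and -0.13 in MC3T3. Its 3 groups overlapped, with differences of -0.14, -0.15 and -0.01, each ± 0.11. The plot of the members by array shows these flat genes beside Fgf7.

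**Figure D1:**
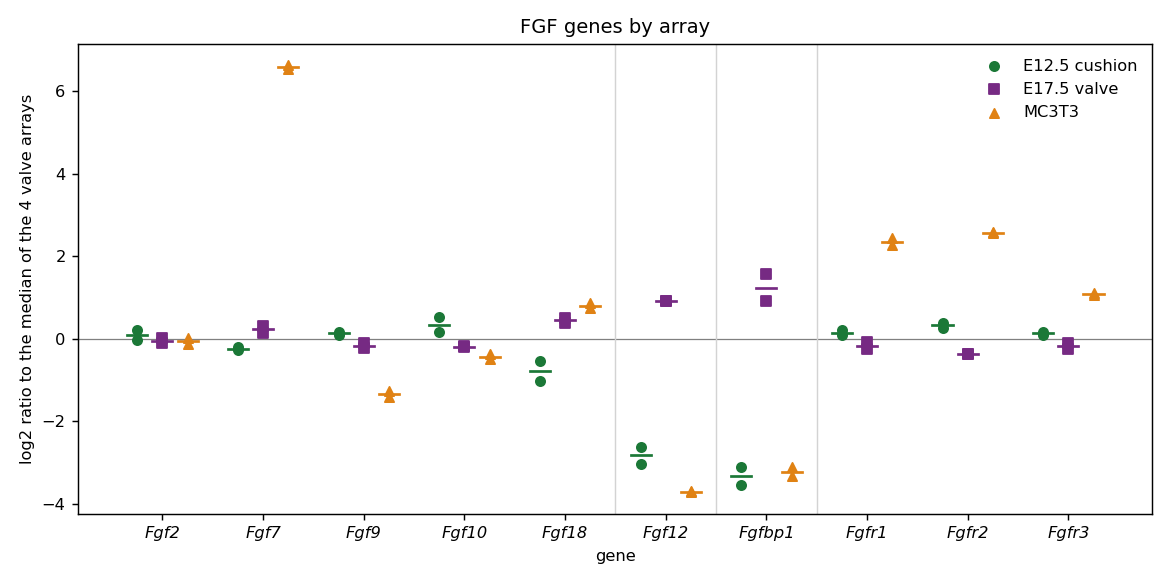
Log2 ratio to the median of the 4 valve arrays (vertical axis) for the 10 FGF genes (horizontal axis), with a point for each array and a bar at the mean of each group of 2 arrays. Fgf7 and the receptor genes are highest in MC3T3, Fgf12 and Fgfbp1 are highest in the E17.5 valve, and Fgf2 overlaps between all 3 groups.

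Fgf12 (chr16:28157783-28753243) was high in the E17.5 valve and low elsewhere. Its log2 ratios were 0.92 on both E17.5 arrays, -2.61 and -3.02 at E12.5, and -3.72 and -3.68 in MC3T3. The E17.5 valve stood 13.3-fold above the E12.5 cushion (3.73 ± 0.13) and 24.5-fold above MC3T3 (MC3T3 minus E17.5 valve -4.62 ± 0.13). The E12.5 cushion lay above MC3T3 without overlap, by less than 2-fold as a mean over probe sets (MC3T3 minus E12.5 cushion -0.88 ± 0.13). That last value depended on the probe set, with -0.35 (1436432_at), -0.59 (1440270_at) and -1.71 (1451693_a_at), and came to -1.09 without E12.5 cushion replicate 2. All 3 probe sets put the E17.5 valve above the E12.5 cushion, by 3.11 to 4.38.

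Some heart muscle markers moved with Fgf12. Of 12 measured cardiomyocyte markers, 4 rose from E12.5 to E17.5 (Ckm, Nppa, Ryr2 and Pln, the last at 0.88 and not called with its most variable probe set) and none fell, and all 12 were lower in MC3T3 than in the E17.5 valve. Their mean log2 ratio was -0.54 and -0.47 at E12.5, 0.30 and 0.28 at E17.5, and -5.90 and -5.88 in MC3T3, where Actc1 and Myl2 were at the lowest deposited ratio, -6.64 on the log2 scale. Ckm, the muscle creatine kinase, rose 7.24-fold (2.86 ± 0.08, limma adjusted p = 1.89e-06). The sarcomere genes Actc1 (0.10), Myl2 (0.14) and Tnnt2 (0.48), named after their values were seen, were not called between the stages. All 12 stage differences were above 0 (0.09 to 2.86, median 0.62), and 11 of the 12 were higher without overlap. Of all 18193 genes 4707 were higher without overlap, 4.67% were called higher, and the median difference was -0.14. The share of muscle in the Fgf12 difference was not tested. Fgf13, another intracellular FGF gene outside the chosen members, was at least 22.3-fold lower in MC3T3 than in the E17.5 valve (-4.48 ± 0.15, limma adjusted p = 1.52e-07), but differed by 0.65 ± 0.15 between the stages (adjusted p = 0.00818) and was not called there.

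By the same distance, Fgf12 had as its nearest genes Dhrs7c (0.44), Myom2 (0.50) and Ptgds (0.70). Dhrs7c encodes a dehydrogenase of the muscle sarcoplasmic reticulum, Myom2 a protein of the sarcomere M-band, and Ptgds a prostaglandin D synthase. Myom2 read -2.49 and -2.59 at E12.5, 0.93 and 0.70 at E17.5, and -3.65 and -3.70 in MC3T3. These likenesses are a description over 6 arrays. Each probe set has a median ratio of 1 over the 4 valve arrays. For a gene far lower on both E12.5 arrays, this scaling largely fixes its lower E17.5 reading. The likeness then rests mostly on how low E12.5 and MC3T3 read, where ratios do not show whether a transcript was present. The same holds for the genes nearest to Fgfbp1.

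The carrier gene Fgfbp1 (chr5:43978858-43981828), whose product frees FGFs from matrix heparan sulphate, had the largest stage difference of the 10 members. Its single probe set (1419086_at) read -3.11 and -3.54 at E12.5, 0.91 and 1.56 at E17.5, and -3.33 and -3.10 in MC3T3. The E17.5 arrays, although 0.65 apart, lay far above all others. The E17.5 valve stood 23.6-fold above the E12.5 cushion (4.56 ± 0.22) and 21.9-fold above MC3T3 (MC3T3 minus E17.5 valve -4.45 ± 0.22). E12.5 cushion and MC3T3 overlapped, at 0.11 ± 0.22, and the sign of that difference changed when single arrays were left out (-0.11 to 0.33). Fgfbp3, a related carrier gene outside the members, followed another order, with -0.14 at E12.5, 0.21 at E17.5 and 0.98 in MC3T3 as group means. It was called only between MC3T3 and the E12.5 cushion (1.12 ± 0.13, limma adjusted p = 0.000156), a call lost without MC3T3 replicate 2 (0.94).

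Fgfbp1 is made by epithelia, and some epithelial genes moved with it while most did not. Its nearest gene over the 6 arrays was Scgb3a2 (distance 0.79), an airway secretoglobin that read -3.03 and -3.50 at E12.5, 1.07 and 0.91 at E17.5, and -3.43 and -3.50 in MC3T3. Next came Ptgds (0.95) and Fgf12 itself (1.19). Of 11 measured airway and lung markers 2 rose from E12.5 to E17.5, Scgb3a2 (4.26 ± 0.15, limma adjusted p = 3.71e-06) and Scgb3a1 (1.27 ± 0.29, adjusted p = 0.00746, and 0.74 without E17.5 valve replicate 1). Over all 11 the mean log2 ratio was -0.35 and -0.39 at E12.5, 0.30 and 0.12 at E17.5, and -0.42 and -0.44 in MC3T3. Their median stage difference was 0.02. The 9 markers other than Scgb3a2 and Scgb3a1 were not called. Among them, and named after their values were seen, Sftpc came to 0.93 ± 0.18 (adjusted p = 0.00415, under 2-fold), and Nkx2-1, Foxa2 and Sftpb to -0.15, 0.02 and -0.26. Of 16 general and stratified epithelium markers 1 rose, Perp (1.23 ± 0.10, adjusted p = 7.28e-05), and the list's mean lay at 0.10 and -0.14 at E12.5, 0.04 and -0.05 at E17.5, and -1.69 and -1.72 in MC3T3. Of 9 epicardial and mesothelial markers 3 rose between the stages and 6 were not called. Those that rose were Msln (3.14 ± 0.20, adjusted p = 3.46e-05), Muc16 (2.72 ± 0.14, adjusted p = 1.5e-05) and Upk1b (1.05 ± 0.12). The call of Upk1b was lost with 0.05 added to each ratio (0.99). The part of any of these cells in the Fgfbp1 difference was not tested. Of 10 measured hepatocyte markers 6 were called higher at E17.5 than at E12.5 and none lower, against 4.67% higher over all genes. Calls of Fgg, Ttr and Afp were lost in some settings. The list averaged 2.42 on E17.5 valve replicate 1 and 0.18 on replicate 2, where Fgfbp1 read 0.91 and 1.56. The part of hepatocyte RNA in the Fgfbp1 difference was not tested. With replicate 2 alone at both stages, 1 array each and a setting chosen after seeing the data, the Fgfbp1 stage difference was 5.10. That value follows from the readings given above and tests no cause.

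**Figure D2:**
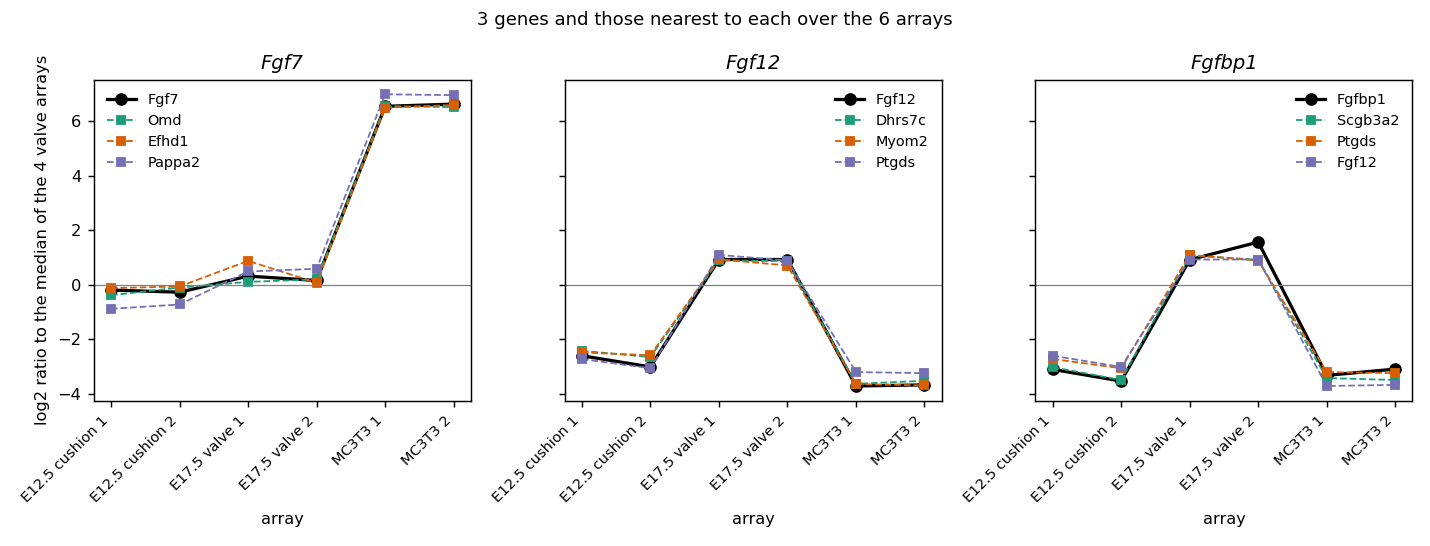
Log2 ratios to the median of the 4 valve arrays (vertical axis) on the 6 arrays (horizontal axis) for Fgf7, Fgf12 and Fgfbp1 (black) and the 3 genes nearest to each by Euclidean distance (colours). Lines join arrays only to guide the eye; the profiles of Fgf12 and Fgfbp1 peak on the E17.5 arrays and that of Fgf7 on the MC3T3 arrays.

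The receptor genes formed 1 pattern. Fgfr1, Fgfr2 and Fgfr3 each read highest in MC3T3, next in the E12.5 cushion and lowest in the E17.5 valve, with no overlap between groups. Such a lack of overlap was common, at 78.5% to 84% of all genes by comparison. Between the stages 9607 of the 18193 genes were lower at E17.5 without overlap. Fgfr2 (chr7:130162451-130266808), whose epithelial splice form binds FGF7 and FGF10 and whose mesenchymal form binds ligands such as FGF9, read 2.59 and 2.55 in MC3T3, 0.26 and 0.39 at E12.5, and -0.36 on both E17.5 arrays. It stood 7.61-fold higher in MC3T3 than in the E17.5 valve (2.93 ± 0.08) and 4.73-fold higher than in the E12.5 cushion (2.24 ± 0.08). Fgfr1 (chr8:25518759-25575718), the main receptor of mesenchyme, read 2.28 and 2.43 in MC3T3, 0.09 and 0.21 at E12.5, and -0.09 and -0.24 at E17.5. The cell line stood 5.72-fold above the E17.5 valve (2.52 ± 0.10) and 4.59-fold above the E12.5 cushion (2.20 ± 0.10). Fgfr3 (chr5:33721724-33737068), known as a brake on cartilage growth, differed less. It read 1.12 and 1.06 in MC3T3, 0.10 and 0.17 at E12.5, and -0.24 and -0.10 at E17.5, with differences from MC3T3 of 1.26 ± 0.08 (E17.5 valve) and 0.96 ± 0.08 (E12.5 cushion, under 2-fold).

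Between the stages the receptor differences were small. E17.5 valve minus E12.5 cushion came to -0.69 ± 0.08 for Fgfr2, -0.32 ± 0.10 for Fgfr1 and -0.31 ± 0.08 for Fgfr3, against a median of -0.14 over all genes. After every array was centred to a median of 0, which raises every stage difference by 0.12 and lowers those of MC3T3 minus E17.5 valve by 0.12, they were -0.57, -0.20 and -0.19. For Fgfr1 the gap between the stages, 0.18, was little wider than the largest replicate range, 0.16.

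Probe sets of a receptor differed in how far they separated the groups. For MC3T3 minus E17.5 valve, Fgfr2 gave 3.68 (1420847_a_at) and 4.09 (1433489_s_at) but 1.01 on the third probe set (1443211_at). Fgfr3 gave 1.89 (1421841_at) and 0.64 (1425796_a_at), and Fgfr1 between 2.14 and 2.93. With the most variable probe set in place of the mean, Fgfr3 in MC3T3 minus E12.5 cushion came to 1.61. Splice forms of the receptors were not separated here. Of the 6 members with more than 1 probe set, all 6 had probe sets of the same sign in each comparison, as the plot by probe set shows.

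**Figure D3:**
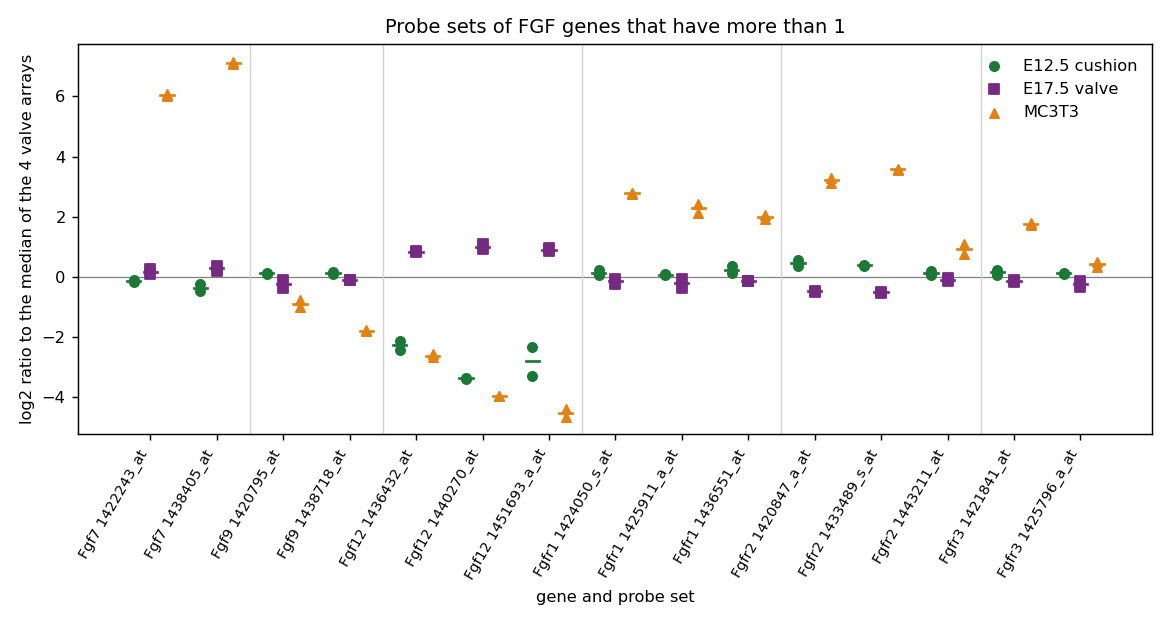
Log2 ratio to the median of the 4 valve arrays (vertical axis) for each probe set (horizontal axis) of the 6 FGF genes that have more than 1, with a point for each array and a bar at each group's mean. Probe sets of a gene rank MC3T3 alike against the E17.5 valve but differ in distance, most for Fgfr2 (1.01 to 4.09) and Fgf12 (-5.42 to -3.46).

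Counted over the 10 members, 3 were called higher at E17.5 than at E12.5 (Fgf12, Fgf18 and Fgfbp1) and none lower, where 6.51% of all genes were called, 4.67% higher and 1.84% lower. Against the E12.5 cushion MC3T3 was higher in 4 (Fgf7, Fgf18, Fgfr1 and Fgfr2) and lower in 1 (Fgf9), where 21.1% of all genes were called, 10.8% higher and 10.2% lower. Against the E17.5 valve it was higher in 4 (Fgf7 and the 3 receptor genes) and lower in 3 (Fgf9, Fgf12 and Fgfbp1), where 17.7% were, 7.94% higher and 9.78% lower. Because the members were chosen on such differences, these shares are not compared. Arrays of the groups did not overlap for 9, 8 and 9 of the 10 members in these comparisons, in the same order, against 78.7%, 78.5% and 84% of all genes. The median absolute log2 difference of the members was 0.50, 1.21 and 1.89, and of all genes 0.29, 0.34 and 0.34. These medians are not compared either, since the members were chosen on such differences. For the 72 other genes of the pathway, described below, the medians were 0.28, 0.45 and 0.50.

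**Figure D4:**
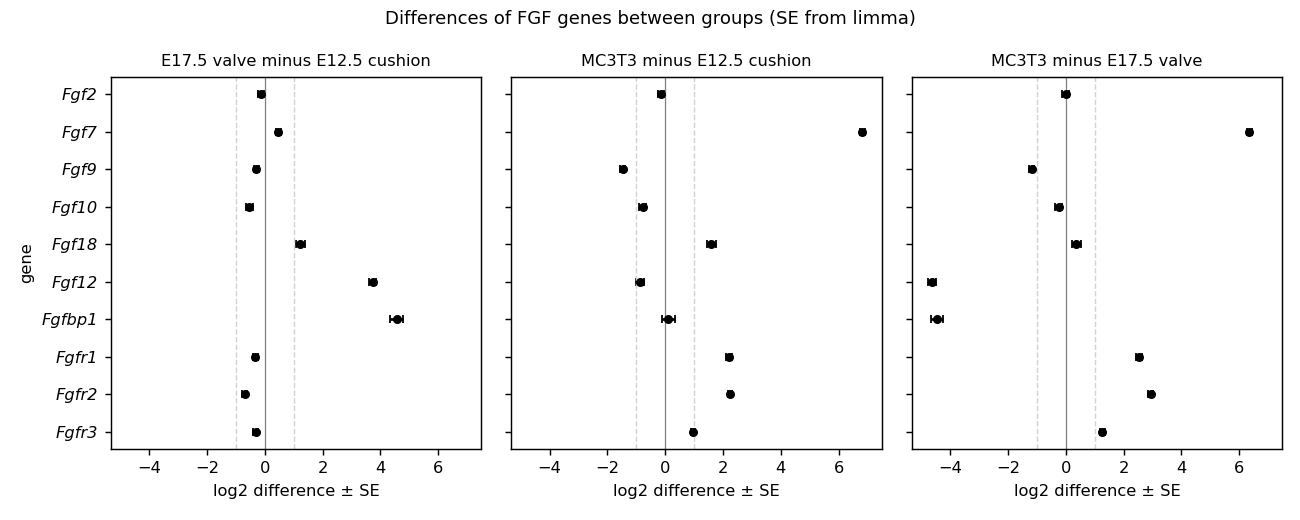
Log2 difference between groups (horizontal axis, point) with the standard error of limma (bar) for each FGF gene (vertical axis) in the 3 comparisons. Dashed lines mark a 2-fold difference in each direction; Fgf7 lies at 6.82 and 6.35 in the comparisons with MC3T3, and Fgfbp1 and Fgf12 at 4.56 and 3.73 between the stages.

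The rest of the pathway was read from 5 lists with 72 measured genes, none of them a member. Between the stages 2 of the 72 were called (2.78%, against 6.51% of all genes), both lower at E17.5, and the median difference was -0.16 against -0.14 over all genes. Fgfrl1, a receptor-like protein without a kinase domain, fell 2.45-fold (-1.29 ± 0.10, limma adjusted p = 8.76e-05). Flrt3, a membrane protein that binds FGF receptors, fell 2.08-fold (-1.06 ± 0.12, adjusted p = 0.000285), a call lost when arrays were centred (-0.94), without E12.5 cushion replicate 2 (-0.91) and without E17.5 valve replicate 2 (-1.0, at the threshold). Against the E12.5 cushion MC3T3 was higher in 12 of the 72 and lower in 11, and against the E17.5 valve higher in 9 and lower in 9, which is 31.9% and 25% of the lists against 21.1% and 17.7% of all genes. By list, heparan sulphate genes gave 52.2% in each comparison, and response and feedback genes 40% and 26.7%. Signal transducers gave 23.1% and 7.69%, other ligands 6.25% in each, and other receptors, co-receptors and carriers 20% and 0%. The lists were chosen with earlier results of these data known, so their shares are a description.

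Most other ligand genes stayed near 0. Of 16 measured, only Fgf13 was called, in both comparisons with MC3T3. Fgf8 differed by -0.39 ± 0.10 between the stages (limma adjusted p = 0.0113) and Fgf1 by 0.18 ± 0.07 (adjusted p = 0.0654), both under 2-fold. Fgfr4, the fourth receptor gene, had differences of -0.21, -0.14 and 0.07 in the 3 comparisons and was called in none (adjusted p = 0.0599, 0.172 and 0.494). Ratios near 0 in every group are also what a transcript below detection gives, and these values do not separate the cases.

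Some response and feedback genes were lower in the cell line, and most were not called. Of 15 measured, 5 were lower, 1 was higher and 9 were not called in MC3T3 against the E12.5 cushion, and 4 were lower, none was higher and 11 were not called against the E17.5 valve. The median difference of this list was -0.28 and -0.61, against -0.01 and 0.15 over all genes. Dusp6, the phosphatase that switches off ERK, was 3.5-fold lower than in the E12.5 cushion (-1.81 ± 0.08, limma adjusted p = 5.81e-07) and 3.59-fold lower than in the E17.5 valve (-1.84 ± 0.08, adjusted p = 5.51e-07). Dusp4, a phosphatase of the same family, was 11.8-fold and 8.38-fold lower. Spry2, a Sprouty inhibitor, was 2.5-fold and 2.16-fold lower, the latter a call lost without MC3T3 replicate 1 (-0.96) and with 0.05 added to each ratio (-0.99). Spry1 was called against the E17.5 valve (-1.43 ± 0.10, adjusted p = 8.83e-06) and came to -0.81 ± 0.10 against the E12.5 cushion. The ETS factor gene Etv5 was 3.21-fold lower than in the E12.5 cushion (-1.68 ± 0.08, adjusted p = 1.27e-06) and -0.95 ± 0.08 from the E17.5 valve, a value that passed 2-fold when arrays were centred (-1.07), without E17.5 valve replicate 2 (-1.01) and when its most variable probe set was used (-1.03). Etv4 and Spry4 were not called, with -0.03 and -0.61 against the E17.5 valve. Spry4 was called with its most variable probe set (-1.14). Spred1, an inhibitor of Ras signalling, was 2.47-fold higher than in the E12.5 cushion (1.31 ± 0.09). Against the E17.5 valve Spred1 came to 0.76 ± 0.09, and with its most variable probe set to 1.01, called higher. Il17rd (0.95 ± 0.11) and Flrt3 (0.85 ± 0.12), named after their values were seen, were also above the E17.5 valve in MC3T3 by less than 2-fold. Between the stages Dusp6 differed by 0.04 ± 0.08 (adjusted p = 0.724) and Spry1 by 0.62 ± 0.10 (adjusted p = 0.00167, under 2-fold).

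Genes for heparan sulphate, the co-factor of FGF binding, differed between MC3T3 and the tissues in both directions. Of 23 measured, 8 were higher and 4 lower in MC3T3 than in the E12.5 cushion, 9 were higher and 3 lower than in the E17.5 valve, and none was called between the stages. Of all genes 10.8% were higher and 10.2% lower than in the E12.5 cushion, and 7.94% higher and 9.78% lower than in the E17.5 valve. The core protein genes Sdc2 and Gpc1 were 6.31-fold and 5.47-fold higher in MC3T3 than in the E17.5 valve, and the sulphotransferase gene Hs6st2 was 4-fold higher. In the opposite direction Gpc3, a glypican of embryonic tissues, was 17.6-fold lower (-4.14 ± 0.09, limma adjusted p = 2.21e-08) and the sulphatase gene Sulf1 at least 25-fold lower (-4.64 ± 0.09, adjusted p = 1.20e-08). Hs3st1, another sulphotransferase gene, was 5.12-fold lower. Sulf2, the other sulphatase gene, was 3.07-fold higher in MC3T3 than in the E17.5 valve, and was named after its values were seen. Among 13 measured signal transducers, the adaptor gene Gab1 was lower in MC3T3 in both comparisons (-1.37 ± 0.09 and -1.33 ± 0.09). Sos1 and Braf were higher against the E12.5 cushion (1.41 ± 0.09 and 1.38 ± 0.09), and passed 2-fold against the E17.5 valve as well with their most variable probe sets (1.20 and 1.33).

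**Figure D5:**
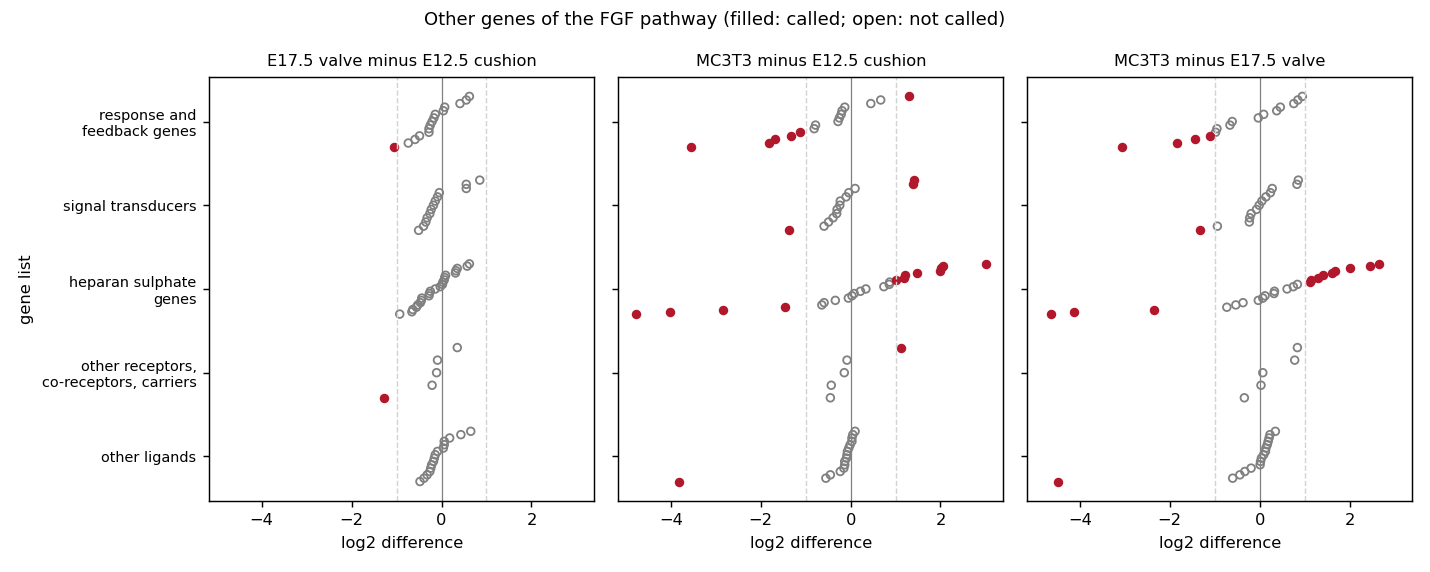
Log2 difference (horizontal axis) of the 72 other genes of the FGF pathway in 5 lists (vertical axis) for the 3 comparisons, with filled points for called genes and open points for the rest. Dashed lines mark 2-fold; 2 genes are called between the stages, 23 between MC3T3 and the E12.5 cushion and 18 between MC3T3 and the E17.5 valve.

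Values of the whole series that bear on these results are few. Replicate arrays lay 0.079 to 0.11 apart in median absolute log2 difference, and 3 genes in MC3T3, 64 at E12.5 and 99 at E17.5 differed at least 2-fold between replicates. In MC3T3 90 genes were at the lowest deposited ratio, none of them a member. Of 12 valve and cushion mesenchyme markers Postn and Col1a1 rose and 6 fell from E12.5 to E17.5, and of 8 osteoblast markers 5 were higher in MC3T3 than in either stage, with Ibsp 45.4-fold and Sp7 20.7-fold above the E17.5 valve. The endothelial list averaged 0.16 and 0.32 at E17.5 and -3.65 and -3.66 in MC3T3, the macrophage list 0.25 and 0.16 against -2.28 on both, and the erythroid list 1.12 and 0.33 at E12.5 against -2.21 and -2.38 at E17.5. From E12.5 to E17.5, 850 of all genes rose and 335 fell (71.7% of calls were higher), and with centred arrays 83.5% of calls were higher. Without the 2-fold requirement the balance turned, with 3509 genes higher and 6231 lower (36% higher), and of the genes whose arrays did not overlap 4707 were higher and 9607 lower. Per the labels' protocols 2 amplification kits were used, and which arrays had which is not stated. An effect of the kit on the differences between groups therefore cannot be told apart and was not tested.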

How the data were processed

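The 6 samples were each hybridized to an Affymetrix Mouse Genome 430 2.0 array. Each deposited value is a ratio. The authors processed the array images in GeneSpring GX 7.3 with RMA and quantile normalization and then set every gene relative to its median, per the text deposited with the series. For all 45101 probe sets the median over the valve-stage arrays was 1 (tolerance 1e-05). No source used here states whether MC3T3 was normalized jointly with the tissue arrays. The lowest ratio is 0.01 (log2 -6.64). The array depth is not expressed in counts, and the number of arrays limits the precision.

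From these ratios the log2 was taken and averaged over the probe sets of a gene. Control probe sets (64), probe sets naming several genes (932) and those without a name (9160) were left out. The 34945 probe sets used stand for 18193 genes, and the RefSeq table (GRCm38.p6) held the symbols of 18145. limma 3.58.1 in R 4.3.3 was fitted over the whole table (lmFit, then eBayes with no trend; 3 residual degrees of freedom, 4.57 prior) and gave differences and adjusted p-values (Benjamini-Hochberg over all genes within a comparison), and the method was tested on simulated data. The named genes are the 10 members, up to 3 called genes each way of every other list and comparison, a fixed set of 11 pathway genes and the 3 genes nearest to each of the 3 members with the widest range; of the marker lists only those beside a result are printed. Members and lists were chosen with earlier results of these data known. A comparison is the first group minus the second, and folds with a gene at the lowest ratio are lower bounds.

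Alternatives were centred arrays, 0.05 added to the ratio, genes at the lowest ratio left out, a trended and robust eBayes fit, a replicate block, only the arrays compared, each array left out, the most variable probe set, probe sets ending in _x_at or _s_at left out, and no 2-fold requirement. Using only replicate 2 of both valve stages was chosen after seeing the data.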

Additional observations from a re-analysis of the deposited data

How the results depend on the processing

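Called members kept their direction in all settings run, but several settings cannot move a member difference. These are the replicate block, only the arrays compared, genes at the lowest ratio left out, the trended fit, no 2-fold requirement, and leaving out an array of the third group. The members were also chosen with their differences known, so the kept directions are a description. With the 2-fold requirement kept, 3 member differences moved across the 2-fold threshold, those of Fgf18, Fgf12 and Fgfr3 given above. Without the 2-fold requirement the genes called numbered 9740 between the stages, 10482 for MC3T3 minus E12.5 cushion and 10942 for MC3T3 minus E17.5 valve, and the other pathway genes 37, 47 and 48. The most variable probe set gave 2027 genes and 4 pathway genes between the stages, Sos1 (1.05) and Braf (1.17) being higher, and centring arrays gave 1 pathway gene. With each array left out the stage comparison had 1110 to 1318 genes and 1 to 3 pathway genes, and 1 in place of 2 without E12.5 cushion replicate 2 or E17.5 valve replicate 2. In other cases counts stayed within 1.5 times.

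With a replicate block the counts were 1202, 3835 and 3237 genes against 1185, 3830 and 3225, and 2, 23 and 18 pathway genes as without it. The labels do not say that a shared number marks a shared source, and deviations of same-numbered arrays from their group means correlated at 0.15, 0.06 and 0.02 over genes, so the arrays are not treated as paired. Background correction was not run, since ratios hold no intensity. For the same reason depth over background is unknown, and a flat ratio cannot be told apart from a transcript below detection.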
